A study of Stylophora pistillata with 6 samples.

Results

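Reef-building corals house photosynthetic dinoflagellates inside their endodermal cells, and the host cell membranes stand between those algae and seawater. Inorganic carbon, ammonium and phosphate must cross the host to reach the algae, and sugars and other small organic molecules made in the light pass back. By name, the 5 coral gene models described here are an enzyme and 4 transporters of such molecules. Their part in exchange with the algae was not tested. They are CAH2 (Spis12076), a carbonic anhydrase, RHBGB (Spis12969), which carries ammonium and belongs to the Rh proteins, NPT2B (Spis12237), a sodium-phosphate cotransporter, SC5A9 (Spis20327), a sodium-glucose cotransporter, and MOT12 (Spis17877), a monocarboxylate transporter. They are 5 of the 25769 gene models in the table, and 5 of 5 had reads in every library. The names come from the best BLAST hits that the study lists, and the hits lie in fish, frogs and the rat. The members were taken from the study's own list of gene models that differed between day and night in these same libraries, so their differences, and the p-values printed with them, are a description and no independent test.

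The libraries came from branch tips of *Stylophora pistillata*, cut as microcolonies of 6 to 10 mm from 3 syngenic parent colonies and left to recover for 10 days. All were kept at 25 °C and a salinity of 38, fed rotifers and brine shrimp larvae, and lit with 175 µmol photons per square metre each second, with day and night each lasting 12 h. The 3 day samples were frozen when 1 h of light remained and the 3 night samples when 1 h of darkness remained. The labels do not say which colony gave which sample, so the spread between replicates may be partly technical. Because whole tissue was used, fewer cells of a type and less RNA per cell cannot be told apart.

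Each library held between 1552480 (day replicate 2) and 6619275 (day replicate 3) reads on coral gene models, so raw reads cannot be set side by side. Levels are therefore given as CPM, reads per 1000000 reads after TMM scaling (a correction for differences in library composition), and a group level is the mean ± SD over n = 3 libraries. In the deposited table, an ID with which longer IDs begin carries their reads as well as its own. This concerned 2371 gene models but 0 of the 5 described here, and those reads were subtracted before scaling. Galaxin (Spis11963), a protein of the coral skeletal matrix, was detected in 6 of 6 libraries, at 54.8 to 129 CPM. It comes from the study's list of gene models that differed in these same libraries. Its detection was therefore largely set in advance and is no check of the tissue.

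The study designed qPCR assays for CAH2 and SC5A9, and these amplicons are the stretches of both transcripts whose sequence was at hand. They are shown because CAH2 took the most reads of the 5 by day and SC5A9 the most by night. Primers are in capitals, and the second primer is printed as its reverse complement.
CAH2: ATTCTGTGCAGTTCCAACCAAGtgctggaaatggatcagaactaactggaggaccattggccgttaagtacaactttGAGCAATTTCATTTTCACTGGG
SC5A9: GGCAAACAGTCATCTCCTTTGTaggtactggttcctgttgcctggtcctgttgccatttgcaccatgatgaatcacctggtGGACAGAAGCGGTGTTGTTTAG
The CAH2 amplicon is 99 bases long (43.4% G or C) and has 1 reading frame without a stop codon as printed and 0 on the opposite strand. The SC5A9 amplicon is 103 bases long (49.5% G or C) and has 0 such frames as printed and 2 on the opposite strand. The assay list gives gene symbols but not gene model IDs, and the positions of both amplicons in the genome were not analysed here.

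By day, the 3 gene models named after proteins that handle carbon, ammonium and phosphate (CAH2, RHBGB and NPT2B) stood higher. Those named after sugar and monocarboxylate transporters (SC5A9 and MOT12) stood lower. The differences ran from 1.64-fold for NPT2B to 12.9-fold for MOT12. For each of the 5, the 3 day libraries lay entirely on one side of the 3 night libraries. Of all 24180 gene models with a read, 10.1% had day and night levels that did not overlap, 5.05% with the higher values by day and 5.04% with the higher values by night. In edgeR's quasi-likelihood test across all gene models, 4 of the 5 passed an adjusted p of 0.05, beside 0.666% of all gene models, and NPT2B did not. CAH2 and RHBGB passed as higher, beside 0.256% of all, and SC5A9 and MOT12 as lower, beside 0.409% of all. DESeq2 called 5 of the 5 and 0.616% of all, and limma-voom 3 of the 5 and 0.461% of all. Since the study picked the 5 on this contrast, nothing is read from these counts.

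**Figure D1:**
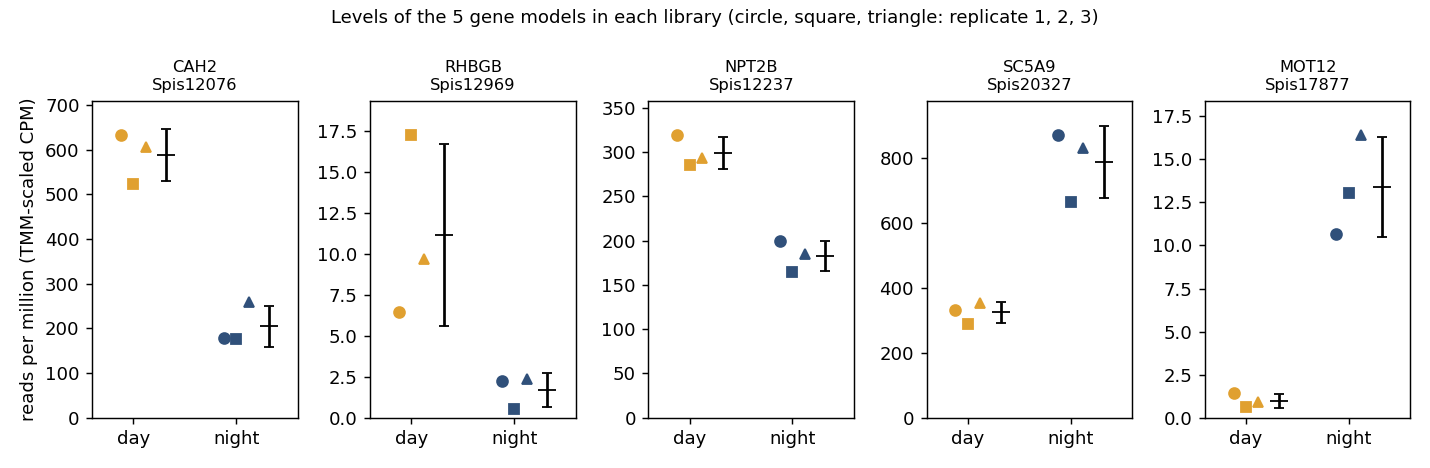
CPM (TMM-scaled reads per 1000000, linear axes that differ between panels) of the 5 gene models in the 3 day and 3 night libraries, with replicate 1 as a circle, 2 as a square and 3 as a triangle, and the mean ± SD of each group as a bar. CAH2, RHBGB and NPT2B are higher in every day library than in any night library, and SC5A9 and MOT12 are lower.

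Carbonic anhydrases interconvert carbon dioxide and bicarbonate, and in corals they deliver inorganic carbon to the algae and to the growing skeleton. CAH2 stood at 634, 523 and 607 CPM in day replicates 1, 2 and 3, and at 179, 177 and 258 CPM in night replicates 1, 2 and 3. The lowest day library was 2.03 times the highest night library, and night replicate 3 lay apart from the other night libraries on the upper side. The group levels were 588 ± 57.8 CPM by day and 204 ± 46.5 CPM by night, a log2 fold change of 1.52 (standard error 0.22). Between libraries of the same replicate number the day level was 3.55, 2.96 and 2.35 times the night level. Without night replicate 3 the log2 fold change was 1.74, the highest value when any library was left out, and the lowest was 1.43.

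Rh proteins are membrane channels for ammonia and ammonium, and ammonium is a nitrogen source of the algal symbionts. RHBGB was a rare transcript. It had 18, 27 and 66 reads in the day libraries and 7, 1 and 6 reads in the night libraries. These reads correspond to 6.44, 17.3 and 9.71 CPM by day and to 2.27, 0.522 and 2.35 CPM by night. The lowest day library was 2.74 times the highest night library. The highest day value (replicate 2) came from the shallowest library, and the single read of night replicate 2 has a 95% exact Poisson interval of 0.0253 to 5.57 reads, which covers counting error only.

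The group levels of RHBGB were 11.2 ± 5.57 CPM by day and 1.71 ± 1.03 CPM by night. The log2 fold change of 2.54 had a standard error of 0.49, the largest of the 5. By replicate number the day level was 2.84 times the night level (95% exact counting interval 1.13 to 8.05), 33.1 times (5.46 to 1357) and 4.13 times (1.80 to 11.7). Summed over libraries, 111 day reads against 14 night reads gave a ratio of 5.37 (3.07 to 10.1). Without day replicate 2 the log2 fold change was 2.16 (adjusted p = 0.068 from edgeR) and without night replicate 2 it was 2.20 (adjusted p = 0.056 from edgeR), so its call rested on both of these libraries. RHBGB also lost its call in limma-voom (adjusted p = 0.18) and in DESeq2 with the replicate number as a block (adjusted p = 0.051), and over all alternatives its adjusted p ran from 5.5e-06 to 0.18.

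NPT2B belongs to the sodium-driven phosphate carriers that move phosphate across the outer membrane of epithelial cells in mammals. It stood at 319.9, 285 and 293 CPM in day replicates 1 to 3 and at 199, 164 and 184 CPM in night replicates 1 to 3. The spread was narrow on both sides, and the lowest day library was 1.43 times the highest night library. The group levels were 299 ± 18.2 CPM and 183 ± 17.3 CPM, a log2 fold change of 0.71 (standard error 0.20). The same-number differences were the most alike of the 5, at 1.61-, 1.73- and 1.59-fold. NPT2B had the smallest difference of the 5 and passed in edgeR only with the replicate number as a block (adjusted p = 0.012) or with the values as deposited (adjusted p = 0.019), and also in DESeq2 (adjusted p = 0.011, and 0.033 with the block). Over all alternatives its adjusted p ran from 0.011 to 0.9998, and it was 0.13 in edgeR. In the DESeq2 fit it was at rank 111 of the gene models, RHBGB at rank 108 and CAH2 at rank 22. The last gene model inside the threshold there, Spis8387, had a log2 fold change of -0.76 and the first outside it, Spis18169, one of 0.74.

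SC5A9 belongs to the family of cotransporters that carry sugars into the cell with sodium. Its level was 332, 287 and 352 CPM in day replicates 1 to 3 and 871, 662 and 830.1 CPM in night replicates 1 to 3. The lowest night library was 1.88 times the highest day library, and replicate 2 was the lowest of its group by day and by night. The group levels were 324 ± 33.3 CPM by day and 788 ± 111 CPM by night, a log2 fold change of -1.28 (standard error 0.23). Night exceeded day 2.62-, 2.31- and 2.36-fold by replicate number. With each library left out in turn, the log2 fold change lay between -1.39 and -1.20.

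MOT12 takes its name from a frog member of the monocarboxylate transporter family, whose best known members carry lactate and pyruvate, while the human protein of this name carries creatine. It was rare by day, with 4, 1 and 6 reads in day replicates 1 to 3, against 33, 25 and 42 reads in night replicates 1 to 3. In CPM these were 1.43, 0.641 and 0.883 by day and 10.7, 13.1 and 16.4 by night. The lowest night library was 7.46 times the highest day library, the widest gap of the 5. The log2 fold change was -3.69 (standard error 0.46). By replicate number, night exceeded day 7.46-fold (95% exact counting interval 2.65 to 29.0), 20.4-fold (3.34 to 836) and 18.6-fold (7.88 to 53.6). Over all libraries, 100 night reads against 11 day reads gave a ratio of 13.4 (7.18 to 27.7). This interval covers counting error only, and its width leaves the size of the difference loosely set at this depth.

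**Figure D2:**
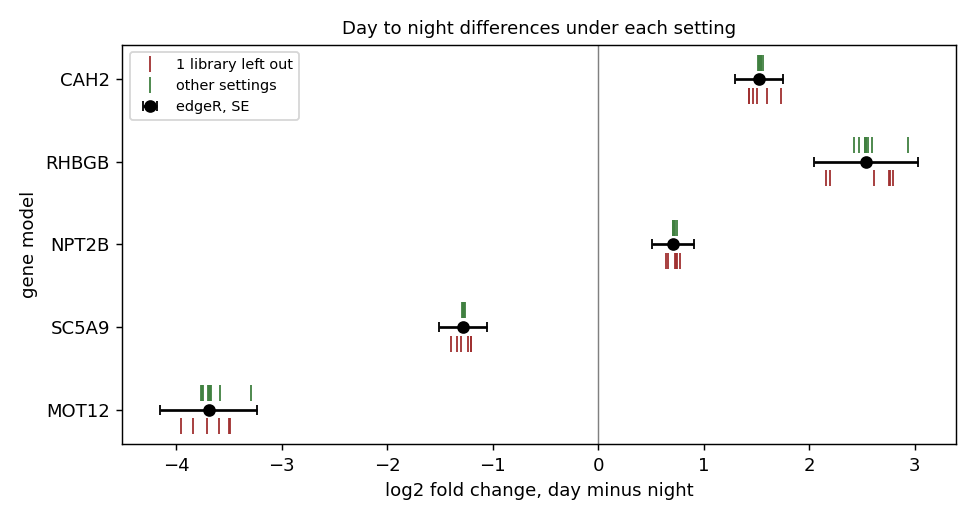
Log2 fold change (day minus night) of the 5 gene models from edgeR (black point with its standard error), from the same fit with 1 of the 6 libraries left out (red ticks) and under the other settings (green ticks). No tick crosses 0, and the ticks of RHBGB, from 2.16 to 2.93, and of MOT12, from -3.95 to -3.29, are the most spread.

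Together the 5 gene models held much the same number of reads by day and by night, while their makeup changed. They took 1276, 1119 and 1296 of every 1000000 reads in day replicates 1 to 3 and 1273, 1016 and 1258 in night replicates 1 to 3, ranges that overlap. CAH2 held 48.0% ± 1.01 of these reads by day and 17.2% ± 2.92 by night. SC5A9 held 26.5% ± 1.25 by day and 66.1% ± 2.54 by night, and NPT2B 24.5% ± 1.22 and 15.4% ± 1.00. RHBGB stayed at or below 1.55% and MOT12 at or below 1.28% in every library. These shares count reads and not molecules, because the lengths of the coding sequences were not used. They do not say which transcript was the more abundant. Each share also moves when the other gene models move, so the change of each gene model is read from its CPM values.

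**Figure D3:**
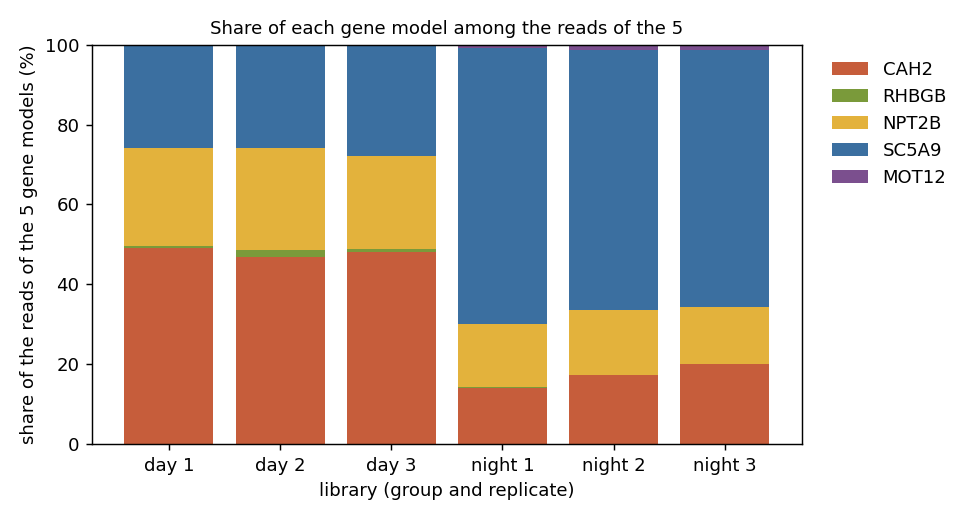
Share (%) of each gene model among the reads of the 5, stacked to 100 for each of the 3 day and 3 night libraries. CAH2 takes 47.0 to 49.0% by day and 14.2 to 20.0% by night, and SC5A9 takes 25.7 to 27.9% by day and 64.3 to 69.0% by night.

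The gene models also differed in how far replicates scattered. The dispersion that edgeR estimated, written as a coefficient of variation between samples beyond counting error, was 16.6% for NPT2B, 18.4% for SC5A9, 19.2% for CAH2, 26.2% for MOT12 and 33.8% for RHBGB. Among gene models within 2-fold of the same mean level, 20.5% had a lower dispersion than NPT2B and 27.6% a lower one than SC5A9. The share was 44.6% for MOT12, 56.1% for CAH2 and 81.9% for RHBGB, so RHBGB was variable even for its level.

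Over the 6 libraries the log2 levels of CAH2, RHBGB and NPT2B were positively correlated with one another (Pearson r from 0.88 to 0.96), as were those of SC5A9 and MOT12 (r = 0.97). The pairs across these 2 sets had r from -0.94 to -0.84. These coefficients are a description, since the 6 libraries share the difference between day and night on which the gene models were chosen. Among 124 other named gene models of the study's list, CAH2 was most like CRY1 (Spis15188.t1, r = 0.996), a cryptochrome, and HEY (Spis7206, r = 0.99), a transcriptional repressor. RHBGB was most like KLH12 (Spis18160, r = 0.98), a kelch protein that hands substrates to a ubiquitin ligase (its adjusted p in DESeq2 was 0.040, and 0.15 with the replicate number as a block), and ETS1B (Spis18634, r = 0.96), a transcription factor. The 2 most like NPT2B were CP3AB (Spis15558.t2, r = 0.99), a cytochrome P450, and PAX3 (Spis375, r = 0.98), a paired box transcription factor. On the side of the night samples, SC5A9 was most like NCPR (Spis12056, r = 0.996), the reductase that feeds electrons to cytochromes P450, and CB042 (Spis2785, r = 0.99). MOT12 was most like RNMT (Spis16302, r = 0.995), named after a bacterial methyltransferase, and UXS1 (Spis2864, r = 0.99), named after an enzyme that makes UDP-xylose.

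Other solute carriers, picked by name from the study's list, were lower by day. ABC transporters were left out, and so were the members, of which RHBGB and NPT2B were higher by day. Of these 6 gene models, 0 passed as higher and 6 as lower in edgeR (adjusted p under 0.05), beside 0.256% and 0.409% of all gene models tested. Their median log2 fold change was -1.31, beside 0.0046 over all gene models tested. SC5A3 (Spis25176), a sodium-coupled carrier of myo-inositol from the same family as SC5A9, stood at 61.5, 76.9 and 74.6 CPM in day replicates 1 to 3 and at 211, 117 and 232 CPM in night replicates 1 to 3 (edgeR log2 fold change -1.40, adjusted p = 0.00081). Its groups did not overlap, and night replicate 2 was its lowest night library, as it was for SC5A9. PTR36 (Spis14863), named after a plant peptide and nitrate transporter, had 1.58 ± 1.48 CPM by day and 16.7 ± 2.39 CPM by night, and its reads were 0 in day replicate 2. SPIN (Spis17125), a lysosomal carrier first described in flies, had 39.9 ± 3.16 CPM and 92.7 ± 4.39 CPM. The other 3 were S52A3 (Spis6332), a riboflavin transporter, ORCT (Spis16234), an organic cation transporter, and MFRN2 (Spis19230), a mitochondrial iron importer, with log2 fold changes of -1.16, -2.32 and -0.83. The study chose the list on these samples, so it is not independent evidence of direction. The count was 3 without night replicate 3, when edgeR gave S52A3, ORCT and MFRN2 an adjusted p of 0.19, 0.055 and 0.15. Of all gene models, 0.643% passed without that library. In limma-voom 2 passed (PTR36 and SPIN), beside 0.461% of all, and SC5A3 had an adjusted p of 0.052. The unadjusted p there was under 0.05 for 6, beside 6.13% of all. In DESeq2 with the replicate number as a block 4 passed, beside 0.529% of all, and S52A3 (adjusted p = 0.17) and ORCT (adjusted p = 0.057) did not. S52A3 also did not pass without day replicate 1 (0.083), day replicate 2 (0.053) or night replicate 1 (0.11). It also missed the threshold with stricter read filters (0.056 and 0.057) and with the values as deposited (0.055). MFRN2 did not pass without day replicate 1 (0.20) or night replicate 2 (0.15). The adjusted p given for left-out libraries, for stricter read filters and for the values as deposited are from edgeR.

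The 4 gene models of sugar and inositol metabolism and of the skeleton moved in both directions. GYS (Spis3506.t1), the glycogen synthase that stores glucose, rose by day, from 121, 89.8 and 109 CPM by night to 190.3, 207 and 232 CPM by day (edgeR adjusted p = 0.0052 for a log2 fold change of 0.97). Galaxin rose from 61.9 ± 6.81 CPM by night to 109 ± 17.3 CPM by day. INO1A (Spis4483), which makes the inositol ring from glucose phosphate, fell from 229.7 ± 29.0 CPM by night to 129.7 ± 20.2 CPM by day. UXS1, at 47.5 ± 8.38 CPM by night, fell by 2.13 on the log2 scale. The median of the 4 log2 fold changes was -0.0067, which is a midpoint between 2 rises and 2 falls and not a lack of change. These 4 also come from the list the study chose on these samples. Leaving out night replicate 2 ended the call of GYS (edgeR, adjusted p = 0.19). Neither INO1A nor Galaxin passed without any 1 of the night libraries (adjusted p from edgeR 0.056 to 0.27 for INO1A and 0.12 to 0.16 for Galaxin), INO1A without day replicate 1 (0.34) or 3 (0.066), or Galaxin without day replicate 2 (0.16). The count was 4 of 4 with all libraries, beside 0.666% of all gene models. It was 2 without night replicate 1, beside 0.404% of all, 1 without night replicate 2, beside 0.39% of all, and 2 without night replicate 3, beside 0.643% of all. In DESeq2 with the replicate number as a block it was 3, beside 0.529% of all, and Galaxin (adjusted p = 0.057) did not pass.

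The gene models whose ID numbers lie 1 or 2 below or above a member are not on the study's list. That list came from the same contrast in these same libraries, so an absence of calls among them was largely set in advance. Whether adjacent numbers are adjacent loci is not given in the sources used here. Of these 20 gene models, 0 passed in edgeR and 0 in DESeq2, beside 0.666% and 0.616% of all gene models, counts too small to tell from these shares. An unadjusted p under 0.05 was found for 2 of the 20 in edgeR, beside 5.35% of all, and for 2 of the 15 that could be tested in limma-voom, beside 6.13% of all. Their median log2 fold change was 0.11, beside 0.0046 over all gene models, and the day and night levels of 5 of the 20 did not overlap, against 10.1% of all. With the replicate number as a block, 1 of the 20 passed in edgeR, where 1.69% of all gene models did, and 0 passed in DESeq2, where 0.529% did. It was Spis12074, numbered 2 below CAH2 and chosen here after its values were seen. It has no name in the sources used here. It had 3.22, 3.85 and 3.53 CPM in day replicates 1 to 3 and 8.74, 6.27 and 14.1 CPM in night replicates 1 to 3, lower by day where CAH2 was higher (log2 fold change with the block -1.54, adjusted p = 0.0065 from edgeR, against 0.83 from DESeq2 with the block and 0.12 to 0.77 over the other alternatives). The neighbours of SC5A9 and MOT12 on either side showed differences in both directions that did not pass (log2 fold changes from -0.75 to 0.99).

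**Figure D4:**
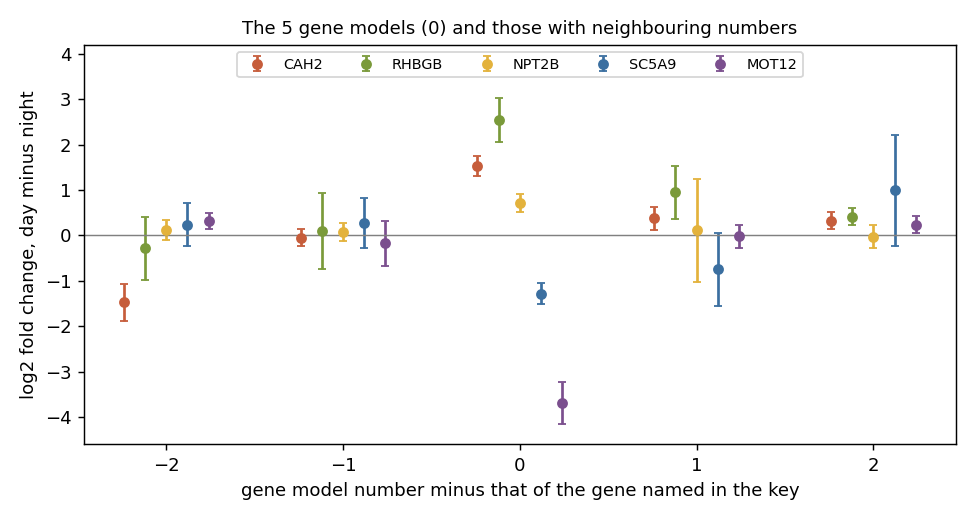
Log2 fold change (day minus night, with its standard error from edgeR) of each of the 5 gene models, at 0 on the x axis, and of those numbered 1 or 2 below or above it. The 5 lie between -3.69 and 2.54. Of the 20 neighbours, which are not on the study's list, 0 passed the test. The lowest of them, at -1.47, is Spis12074, numbered 2 below CAH2.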

How the data were processed

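Poly(A) RNA of 6 libraries was sequenced on a SOLiD 3 instrument. The authors aligned the colorspace reads to the longest coding sequences of the coral gene models with Bowtie, for which the submitters' processing notes give version 1.2.3, and counted them with their own script. The deposited counts are whole numbers, not normalized or pooled. Multi-mapping between similar gene models could split reads of a family, and how such reads were treated is not given in the sources used here.

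Reads of longer IDs were subtracted from the rows whose ID they begin with (2371 rows, 9.2%). This left 0 values below 0, and the totals equalled the mapped reads listed by the study in 6 of 6 libraries. Gene models with no read in any library (1589) were left out. Day was compared with night over the other 24180 in R 4.3.3 with edgeR 4.0.16 (TMM factors 0.974 to 1.027, estimateDisp, robust quasi-likelihood F test, two-sided, Benjamini-Hochberg, threshold 0.05). The standard error is the size of the log2 fold change divided by the square root of F. Counting intervals are exact at 95% and cover counting error only. The libraries held 1552480 to 6619275 reads.

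For the blocked fits, replicate numbers were taken to pair the samples. Over 14262 gene models, deviations from the group means correlated at 0.24, 0.19 and 0.37 for the same number and at -0.28 to 0.09 otherwise. Deviations within a group cancel out, so positive values for the same number force lower ones otherwise. Replicate 2 was also the shallowest library of each group, and whether shared depth gave these correlations was not tested. The labels do not state the pairing, so the unblocked fit stayed the main one and the blocked value is given where it changes a call.

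The members and lists were chosen with earlier results of these data known. Genes named are the 5 members, 2 lists drawn from the study's list, neighbours in number that pass, the gene models on either side of the DESeq2 threshold, and for each member the 2 named gene models with the highest Pearson correlation of log2 CPM (prior count 2). Other members of the same families were not analysed here, because the reference used here does not tie the IDs to products. Alternatives were other scalings and filters (filterByExpr, 10 reads over the libraries), DESeq2 1.42.0, limma-voom (limma 3.58.1), blocks, values as deposited, thinning and left-out libraries. The fits and the subtraction were tested on simulated data. Tables and figures used matplotlib 3.10.9, scipy 1.17.1, pandas 2.3.3 and numpy 2.4.6 under Python 3.11.15.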

Additional observations from a re-analysis of the deposited data

How the results depend on the processing

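The direction of all 5 members held under each of 16 alternatives, with log2 fold changes of 1.43 to 1.74 for CAH2, 2.16 to 2.93 for RHBGB, 0.64 to 0.78 for NPT2B, -1.39 to -1.20 for SC5A9 and -3.95 to -3.29 for MOT12. That of MOT12 moved by more than its replicate spread only in the thinned libraries (-3.29), where fewer reads remained. Of the 5, with the share of all gene models called in brackets, 3 passed in limma-voom (0.461%) and 5 in DESeq2 (0.616%). With the replicate block, 5 passed in edgeR (1.69%) and 4 in DESeq2 (0.529%). With a library left out, 3 to 4 passed (0.39% to 0.972%). Over all gene models, 161 passed (62 higher and 99 lower by day), 79 in limma-voom, 409 with the replicate block (209 higher and 200 lower), and 94 to 233 with a library left out. The other solute carriers numbered 2 in limma-voom, beside 0.461% of all, and 3 to 6 with a library left out, beside 0.39% to 0.972%. Of the 4 sugar, inositol and skeleton gene models, 2 passed with filterByExpr, beside 0.718% of all. With at least 10 reads over the libraries 2 passed, beside 0.566%, and in limma-voom 2, beside 0.461%. With a library left out 1 to 3 passed, beside 0.39% to 0.972%. The neighbouring numbers had 1 call with the replicate block in edgeR, beside 1.69% of all, and 0 with it in DESeq2, beside 0.529%. Among the gene models named, the block changed calls of NPT2B and Spis12074 in edgeR and of RHBGB, S52A3, ORCT, Galaxin and KLH12 in DESeq2, and no other call of the members, lists, neighbours or most alike gene models. With the values as deposited, PAX3, whose row then holds the reads of longer IDs, had a log2 fold change of -0.10. Depth limits RHBGB and MOT12 most, with 14 night reads and 11 day reads in all.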
